A study of Mus musculus with 13 samples.

Results

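The genes described here are the variable (V) segments of the T cell receptor, in bulk RNA sequencing of unsorted mouse tissue, namely lymph nodes draining a tumour (tdLN) and B16F10 tumours. A row of the count tables was taken when its identifier maps, in the GENCODE M21 annotation of the mouse build GRCm38, to a functional V gene with a symbol of the Trav, Trbv, Trgv or Trdv series. This gave 136 of 49315 rows, namely 108 Trav segments of the α chain, 22 Trbv segments of the β chain, 5 Trdv segments of the δ chain and Trgv2 of the γ chain. A further 34 V pseudogenes and 8 V genes under other symbols, 6 of them named Tcrg-V, fell outside the choice. The Trav and Trdv segments lie interleaved on chromosome 14, the Trbv segments on chromosome 6, and Trgv2 on chromosome 13.

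B16F10 is a pigmented mouse melanoma line, and 200000 of its cells were placed in the skin of the left flank of female mice at 6 to 11 weeks of age. All mice had first been given 5 doses of tamoxifen at 0.1 mg per g of body weight, starting at 6 to 8 weeks, with 9 days between the last dose and the tumour. Foxp3ΔJag1 mice carried a floxed allele of Jag1, the gene of the Notch ligand Jagged-1, and an inducible Cre that tamoxifen activates and the regulatory T cell gene Foxp3 drives. Recombination is therefore limited to cells that express Foxp3, while the libraries are from whole tissue. Control mice, called Foxp3Ctrl, are wild type in one label and carry the same Cre with 1 floxed and 1 wild-type Jag1 allele in the design text, and the sources used here do not settle which. The libraries analysed were 3 nodes of each genotype and 3 Foxp3Ctrl tumours. By the mouse codes in the library names, these tumours and the control nodes were taken from 3 shared animals. The 4 Foxp3ΔJag1 tumours were not analysed here. Total counts ran from 33157236 to 44540888 in nodes and from 32117478 to 40968494 in tumours.

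In a developing T cell, the RAG recombinase joins a V segment to a joining (J) segment, with a diversity segment between them in β and δ chains, and splicing then adds the constant (C) exons. A T cell transcribes its rearranged V segments at high level, and many T cells carry and transcribe rearranged α genes on both alleles. The summed reads of a V segment in a tissue reflect how many T cells carry it and how much receptor message each makes. V segments contact parts of the antigen and of the MHC molecule. Invariant populations use certain segments, such as Trav11 in invariant NKT cells and Trav1 in MAIT cells. The counts hold no junction, so neither clones nor rearrangements can be read from them. Values below are counts scaled to the library total (CPM), or the percentage that a segment takes of the summed V counts of its chain, called its share. A share does not scale with the number of T cells in a sample.

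The part of a V segment next to the junction shows what the members have in common. Of the 136 members, 134 (98.53%) hold the letters TANNNNTG within the last 30 bases of their longest transcript, read on the sense strand only. In V genes these letters usually belong to the codons of a conserved tyrosine and of the cysteine at which the junction starts. The same letters were present in 24 of 34 V pseudogenes (70.59%) and in 10.64% of the last 30 bases of 141722 GENCODE transcripts. The 2 members without a match were Trbv1 and Trbv19. The last 60 bases of the segments on which the results below turn are given here from the GENCODE M21 transcripts, 5′ to 3′, with the match and the base after it in capitals. Trav3-3 and Trbv13-2 held the largest share of their chain in nodes. Trav4-4-dv10 was the largest Trav segment in all 3 tumours, and Trbv16 the largest Trbv segment in tumours 2 and 3 only. Trav1 is the α segment of MAIT cells. Trdv4 is the δ segment of the invariant receptors of epidermal γδ T cells, and Trgv2 is the only γ member.
Trav3-3 (chr14:53666447-53666506, + strand): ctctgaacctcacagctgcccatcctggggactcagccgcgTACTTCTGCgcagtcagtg
Trav4-4-dv10 (chr14:53684118-53684177, + strand): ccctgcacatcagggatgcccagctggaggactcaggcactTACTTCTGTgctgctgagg
Trav1 (chr14:52428817-52428876, + strand): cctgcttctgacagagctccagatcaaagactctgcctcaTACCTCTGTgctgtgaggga
Trbv13-2 (chr6:41121773-41121832, + strand): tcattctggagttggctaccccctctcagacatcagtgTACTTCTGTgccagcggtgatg
Trbv16 (chr6:41152171-41152230, + strand): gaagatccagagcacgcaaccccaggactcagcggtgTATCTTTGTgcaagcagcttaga
Trdv4 (chr14:54075456-54075515, + strand): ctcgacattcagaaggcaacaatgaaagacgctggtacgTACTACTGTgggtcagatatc
Trgv2 (chr13:19336573-19336632, - strand): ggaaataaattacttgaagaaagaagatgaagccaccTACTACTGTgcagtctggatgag

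In the mouse build GRCm38 the α locus holds 3 runs of related segments. Most Trav names therefore come in sets, such as Trav9-2, Trav9d-2 and Trav9n-2. Among the 108 Trav members, 46 have plain names, 34 carry the letter d and 28 the letter n. Rows with an identical copy were all but empty. The 39 members whose transcript matches another V row without a difference held at most 5 counts each over the 6 nodes, with a median of 1 and 13 of them at 0. The 28 members whose nearest V row was at least 98% but under 100% identical had a median of 190.5 counts, and the 41 Trav members without so close a row had a median of 157 counts. A read that matches 2 rows equally can be left uncounted or given to either, and which of these was done is not given in the sources used here. A low count of an identical segment was therefore not read as a low level.

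The next 3 sets are shown as examples of related segments with and without an identical copy, and were picked with their counts in view. Their last 60 bases follow, with capitals at the bases that differ from the plain-named segment of the set.
Trav9-2 (chr14:53591455-53591514, + strand): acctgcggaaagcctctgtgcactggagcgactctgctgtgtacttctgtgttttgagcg
Trav9d-2 (chr14:52892559-52892618, + strand): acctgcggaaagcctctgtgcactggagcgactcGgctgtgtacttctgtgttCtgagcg
Trav9n-2 (chr14:53203495-53203554, + strand): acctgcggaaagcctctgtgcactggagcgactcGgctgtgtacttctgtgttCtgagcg
Trav14-2 (chr14:53641166-53641225, + strand): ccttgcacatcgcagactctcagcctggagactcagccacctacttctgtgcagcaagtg
Trav14d-2 (chr14:52949110-52949169, + strand): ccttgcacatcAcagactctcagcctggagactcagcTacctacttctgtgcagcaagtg
Trav16 (chr14:53743646-53743705, + strand): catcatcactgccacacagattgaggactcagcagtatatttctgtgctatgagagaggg
Trav16d-dv11 (chr14:53047762-53047821, + strand): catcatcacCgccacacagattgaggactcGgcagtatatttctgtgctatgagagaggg
Trav16n (chr14:53351562-53351621, + strand): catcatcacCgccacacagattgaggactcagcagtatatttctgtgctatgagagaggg
Trav9d-2 and Trav9n-2 differ from Trav9-2 at 5 positions over their transcripts but not from each other, and they held 0 counts each against 558 for Trav9-2. Trav14d-2 differs from Trav14-2 at 9 positions, again without a difference to its own n copy, and held 2 counts against 495. The Trav16 set has no identical pair, and there all 3 rows were counted, with 429 counts for Trav16, 84 for Trav16d-dv11 and 479 for Trav16n. The n copy thus held as many counts as the plain segment in the set whose rows all differ, while the d and n copies of the other sets were near 0.

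**Figure D1:**
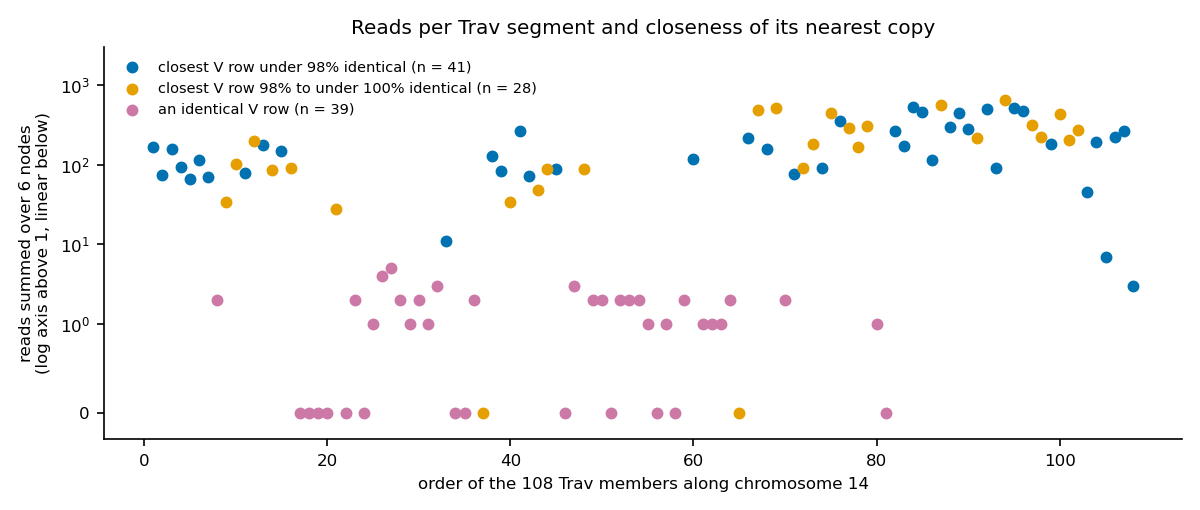
Counts of the 108 Trav members summed over the 6 nodes (log axis above 1, linear below), in their order along chromosome 14 and coloured by the identity of the nearest V row. The 39 members with an identical V row lie between 0 and 5 counts, and the members without one lie higher, apart from 4 that held fewer than 10.

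Summed over all members, V counts ran from 7065 to 10500 in the 6 nodes. In bulk samples fewer T cells and less receptor message per T cell cannot be told apart. β segments took most of the counts, with 150.6 ± 29.2 CPM (SD, n = 3) in control nodes against 160.2 ± 10.6 CPM (SD, n = 3) in Foxp3ΔJag1 nodes. α segments summed to 59.8 ± 9.25 and 62.4 ± 2.42 CPM. The node groups overlapped in every chain. δ segments summed to 3.41 ± 1.06 and 3.21 ± 0.299 CPM, and Trgv2 to 2.31 ± 0.542 and 2.12 ± 0.244 CPM. Against the constant exons of the same chain, the nodes held 33.8 ± 1.28 Trav counts per 100 Trac counts (SD, n = 6). Per 100 counts of Trbc1 and Trbc2 they held 41.7 ± 2.31 Trbv counts (SD, n = 6). By genotype the Trbv value was 43.4 ± 0.969 in Foxp3Ctrl and 40.0 ± 1.83 in Foxp3ΔJag1 nodes (SD, n = 3 each). On this ratio the β groups did not overlap, with the nearest nodes at 42.6 and 42.1, while the α groups overlapped. The cause of this was not tested.

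In the α chain the node repertoire was broad. Between 68 and 76 of the 108 Trav rows held a count in each node, and Trav3-3 had the largest share in each. Trav3-3 took 5.31%, 4.30% and 4.53% of Trav counts in the Foxp3Ctrl nodes and 4.49%, 4.88% and 4.44% in the Foxp3ΔJag1 nodes, a mean of 4.66 ± 0.374% (SD, n = 6). The next were Trav9-2 at 3.94 ± 0.442%, Trav13-1 at 3.82 ± 0.233%, Trav14n-3 at 3.70 ± 0.563% and Trav9-4 at 3.67 ± 0.313%. The 5 means lay within 1 percentage point of each other. Over the 6 nodes the range of Trav3-3 overlapped with that of Trav9-2 but lay above those of the other 3, and these 4 overlapped among themselves. Per kilobase of exon, the scale on which genes of different length can be compared, the order changed: Trav13-1 came first with 4.52% of the length-corrected sum, Trav3-3 second with 4.35%, and Trav9-2, whose annotated exons are 563 bases long, fell to rank 13.

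The effective number of segments, which is the number of equally used segments that would give the same Shannon entropy, was 49.8 ± 3.29 for Trav in Foxp3Ctrl nodes and 50.5 ± 1.03 in Foxp3ΔJag1 nodes (SD, n = 3 each). Plain-named segments held 76.3 ± 4.18% of Trav counts in Foxp3Ctrl and 75.4 ± 0.575% in Foxp3ΔJag1 nodes, the d copies 10.2 ± 2.64% and 11.2 ± 0.759%, and the n copies 13.5 ± 2.02% and 13.5 ± 0.578%. These shares did not differ beyond the spread between nodes (exact permutation test, 2-sided, p = 0.7, 0.9 and 1.0). The 39 members with an identical copy hold few counts, as above, and these shares are of counts, not of T cells. Trav14n-3 and Trav16n, both with a distinguishable sequence, were the highest n copies, with 520 and 479 counts. Along the locus, the 12 plain segments from Trav1 to Trav6-4, the farthest from the J segments, summed to 8.36 ± 0.920% of Trav counts. The 11 from Trav9-2 to Trav5-4 summed to 30.8 ± 3.09%, and the 11 nearest to the J segments to 14.6 ± 1.83% (SD, n = 6). The rank correlation of share with position over the 46 plain segments was 0.29, given as a description of segments that share libraries and copies.

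Trav11 and its copy Trav11d, the α segment of invariant NKT cells, were listed at 0 in all 9 libraries. Their transcripts show no difference where they overlap, so a 0 cannot be told apart from reads that matched both rows. Counting error alone would allow Trav11 up to 0.151% of Trav counts in the node with the fewest. Trav1, the α segment of MAIT cells, has no close relative among the V rows and was counted in every node, with a share between 0.642% and 1.66%. As the counts hold no junction, this share was not read as one of MAIT cells.

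In the β chain 22 segments were spread over 2 orders of magnitude. Trbv13-2, also the most frequent β segment of invariant NKT cells, had the largest share in each of the 6 nodes, 13.7 ± 0.726% (SD, n = 6). Trbv16 followed at 10.3 ± 0.826%, Trbv3 at 7.65 ± 0.702%, Trbv12-2 at 6.81 ± 0.260% and Trbv13-3 at 5.85 ± 0.545%. Trbv13-2 did not overlap with Trbv16 over the 6 nodes, and Trbv16 did not overlap with Trbv3. The lowest were Trbv21 at 0.0849 ± 0.0207% and Trbv30 at 0.412 ± 0.0944%. Per kilobase the first 2 ranks stayed, with Trbv12-2 at rank 3 and Trbv3 at rank 5. The 3 Trbv13 segments together took 24.4 ± 0.988% in Foxp3Ctrl and 25.5 ± 0.953% in Foxp3ΔJag1 nodes (SD, n = 3 each). The effective number of Trbv segments was 17.5 ± 0.177 and 17.2 ± 0.292. No Trbv member had a V row closer than 98%, so the copies that touch the Trav counts do not touch these. Trbv4 and Trbv5 share exon sequence on the same strand with the gene 5830405F06Rik, and their reads may be split with it.

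**Figure D2:**
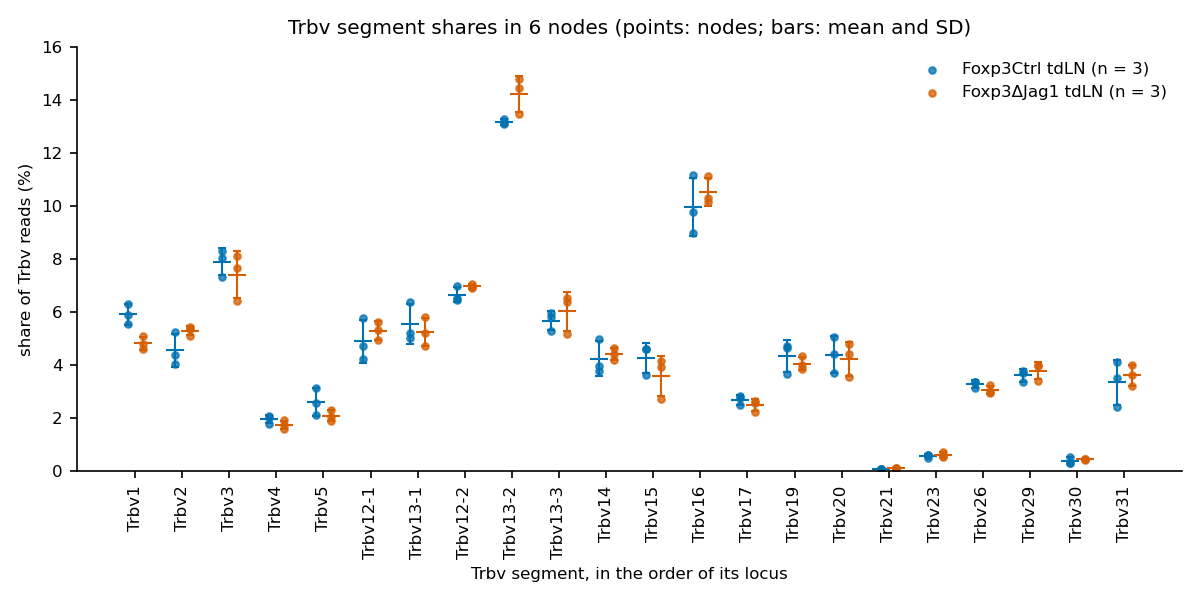
Share of Trbv counts taken by each of the 22 Trbv segments, in the order of the locus, with the 3 Foxp3Ctrl and the 3 Foxp3ΔJag1 nodes as points and the group mean ± SD as bars. Trbv13-2 and Trbv16 lead in every node, and the groups are apart at Trbv1, Trbv13-2 and, at a share near 0.1%, Trbv21.

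The δ and γ members were low. Of the 5 Trdv segments, Trdv5 took 32.3 ± 6.35% of Trdv counts, Trdv4 24.2 ± 5.85%, Trdv2-2 23.7 ± 3.30% and Trdv1 19.4 ± 3.33% (SD, n = 6), out of 98 to 158 Trdv counts per node. Trdv2-1 held 3 counts over the 6 nodes. Trdv5 lies on the strand opposite to an annotated exon of Trdc, and without a known strand setting its reads cannot be separated from those of Trdc, which held 565 to 731 counts per node. Trgv2 held 75 to 100 counts per node. δ chains can also use the 10 Trav segments with a dv name, so that the Trdv counts are not the whole δ repertoire.

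The first comparison asked whether V segments differed between Foxp3ΔJag1 and Foxp3Ctrl nodes. None of the members passed the test. edgeR's quasi-likelihood test on the 6 nodes, with Benjamini-Hochberg adjustment over all 18440 genes tested, called 0 of the 85 members tested (59 Trav, 21 Trbv, 4 Trdv and Trgv2), against 0.0380% of all genes called, and the lowest adjusted p of a member was 0.953. At an unadjusted edgeR p under 0.05 there were 2 members, where 581 of the 18440 genes were. DESeq2 called 0 of 121 members, and 70 of 31470 genes. Jag1 itself averaged 23.2 ± 1.21 CPM (SD, n = 3) in control and 24.1 ± 3.58 CPM (SD, n = 3) in Foxp3ΔJag1 nodes, and Foxp3 averaged 16.03 ± 3.34 and 19.7 ± 3.53 CPM. The label of the groups therefore had no check in the level of the deleted gene in whole nodes. A member missing from the fit had too few counts.

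The fitted differences were small and fell on both sides of 0. The median log2 fold change was 0.05 over the 59 Trav members, with 37 above and 22 below 0. It was 0.13 over the 21 Trbv members, with 12 above and 9 below, and -0.15 over the 4 Trdv members, with 1 above and 3 below. The median over all genes tested was -0.0045, and 0.07 over 7 constant-region genes. Without the second Foxp3Ctrl node, whose V counts were the lowest of the 3 control nodes, the median over the members turned from 0.04 to -0.08. Among Trbv members, which are the best counted, fold changes ran from -0.26 to 0.32.

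**Figure D3:**
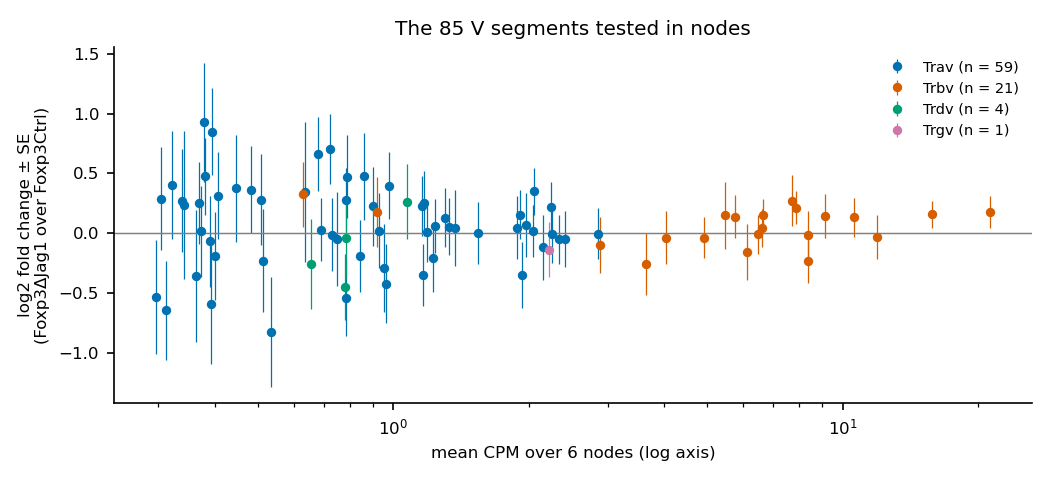
log2 fold change ± SE (Foxp3ΔJag1 over Foxp3Ctrl nodes, edgeR, n = 3 each) of the 85 tested members against their mean CPM over the 6 nodes (log axis), coloured by chain. The Trbv members lie between -0.26 and 0.32, and the spread widens towards the segments with few counts.

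The members with the smallest p on the higher side were Trav1, Trav10d and Trav3-1. Trav1 had 15, 28 and 20 counts in Foxp3Ctrl and 29, 29 and 48 counts in Foxp3ΔJag1 nodes, or 0.542 ± 0.120 and 0.902 ± 0.163 CPM (SD, n = 3 each). The log2 fold change was 0.71 ± 0.29 (SE), with an unadjusted edgeR p of 0.0411 and an adjusted p of 0.953. The 3 Foxp3ΔJag1 nodes lay above the 3 Foxp3Ctrl nodes in CPM, but as a share of Trav counts the groups overlapped. Trav10d, whose plain relative Trav10 is 99.3% identical, had 9, 13 and 10 counts against 13, 22 and 24, a log2 fold change of 0.85 ± 0.36 (SE; edgeR adjusted p = 0.953). Trav3-1 had 20, 15 and 24 counts against 35, 23 and 40, a log2 fold change of 0.66 ± 0.31 (SE; edgeR adjusted p = 0.953). Each of these rests on fewer than 50 counts per node.

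On the lower side the smallest p belonged to Trav8d-2, Trav7-6 and Trdv4. Trav8d-2 had 17, 46 and 18 counts in Foxp3Ctrl and 15, 7 and 25 counts in Foxp3ΔJag1 nodes, so that the second Foxp3Ctrl node stood apart and the groups overlapped. Its log2 fold change of -0.83 ± 0.46 (SE; edgeR adjusted p = 0.953) became -0.31 without that node. Trav7-6 had 22, 38 and 46 counts against 27, 19 and 29, a log2 fold change of -0.54 ± 0.32 (SE; edgeR adjusted p = 0.953). Trdv4 had 34, 33 and 35 counts against 27, 26 and 23, and its log2 fold change was -0.45 ± 0.27 (SE; edgeR adjusted p = 0.953). In CPM, Trdv4 overlapped between the groups.

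In CPM, 5 of the 85 members tested had groups that did not overlap, which were Trav1, Trav3-1, Trav10d, Trav16n and Trbv30, each higher in Foxp3ΔJag1 nodes. Over all 18440 genes the groups did not overlap in 7.29%, so the members' count is near that of genes at large. Trav16n was at 1.79, 1.76 and 1.83 CPM in Foxp3Ctrl and at 2.13, 2.14 and 2.69 CPM in Foxp3ΔJag1 nodes (log2 fold change 0.35 ± 0.20 SE, edgeR adjusted p = 0.953).

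Shares were compared between the node groups segment by segment. Among the 108 Trav members 4 had shares that did not overlap between the node groups, among the 22 Trbv members 3, and among the 5 Trdv members 1. The 7.29% of genes given above is for CPM and not for shares, and nothing is read from these counts. In the β chain these were Trbv13-2, Trbv1 and Trbv21. Trbv13-2 took 13.1%, 13.1% and 13.3% of Trbv counts in the Foxp3Ctrl nodes and 14.5%, 14.8% and 13.5% in the Foxp3ΔJag1 nodes, a difference of 1.06 percentage points that came down to 0.168 between the nearest nodes. Trbv1 took 5.89%, 5.53% and 6.31% against 5.08%, 4.59% and 4.80%, a difference of -1.09 points. In CPM both overlapped between the groups, and the edgeR log2 fold changes were 0.18 ± 0.13 (SE; adjusted p = 0.953) and -0.23 ± 0.19 (SE; adjusted p = 0.953). Trbv21 held 4 to 9 counts per node.

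Other Trbv segments with the larger differences of mean share overlapped between the groups. Trbv2 went from 4.55 ± 0.633% in Foxp3Ctrl to 5.30 ± 0.167% in Foxp3ΔJag1 nodes and Trbv16 from 9.98 ± 1.10% to 10.5 ± 0.527%. On the other side, Trbv15 went from 4.27 ± 0.553% to 3.596 ± 0.759% and Trbv5 from 2.60 ± 0.519% to 2.08 ± 0.204% (SD, n = 3 each). In the α chain the segments that did not overlap were Trav9-4 at 3.44 ± 0.292% and 3.89 ± 0.0850%, Trav3-1 at 0.864 ± 0.159% and 1.33 ± 0.155%, Trav13n-1 and Trav3d-3, the last with 1 count in each control node and none in the others. The largest differences of mean share, Trav12-2 at -0.786 points and Trav16n at 0.664 points, overlapped between the groups. Trdv5 took 27.4%, 25.7% and 31.0% of Trdv counts in Foxp3Ctrl and 31.6%, 34.7% and 43.6% in Foxp3ΔJag1 nodes, with the nearest nodes 0.605 points apart and counts of 26 to 61 behind each.

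Whole repertoires did not separate the genotypes beyond the spread between nodes. The Bray-Curtis distance, here the percentage of counts that would have to move between segments to make 2 repertoires alike, averaged 11.9% for Trav between nodes of different genotype and 12.2% between nodes of the same genotype (exact permutation test, p = 0.7). For Trbv it was 6.10% and 5.56% (exact permutation test, p = 0.2) and for Trdv 12.02% and 11.01% (exact permutation test, p = 0.2). The effective numbers gave exact permutation p-values of 0.9 for Trav, 0.2 for Trbv and 0.2 for Trdv (2-sided). The summed chains differed by 0.07 for Trav, 0.11 for Trbv, -0.04 for Trdv and -0.10 for Trgv2 in mean log2 CPM (Foxp3ΔJag1 minus Foxp3Ctrl), with exact permutation p-values of 0.9, 0.7, 1.0 and 0.8. With 3 nodes against 3 none of these tests can go below 0.1. Without the second Foxp3Ctrl node the difference turned to -0.06 for Trav and -0.05 for Trbv, and without the third it turned to 0.18 for Trdv and 0.06 for Trgv2.

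The second comparison set the V segments of the 3 Foxp3Ctrl tumours against the nodes of the same mice. V counts were few in tumours: 69, 44 and 73 for Trav, 101, 110 and 145 for Trbv, 6, 6 and 5 for Trdv, and 4, 14 and 19 for Trgv2. In CPM the Trav sum was 1.73 ± 0.607 in tumours against 59.8 ± 9.25 in nodes, a difference of -5.17 in mean log2 CPM. The Trbv sum was 3.30 ± 1.06 against 150.6 ± 29.2, a difference of -5.54 (SD, n = 3 each). All tumours lay below all nodes, and the exact permutation p was 0.1 for each chain, the lowest that 3 against 3 allows. That test did not pair tumour and node by mouse, and an exact sign-flip test over 3 pairs cannot go below 0.25. edgeR called 70 of the 70 members tested as lower in tumours, where 37.6% of 18566 genes were. The members entered that test through their node levels, so this count is no support.

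**Figure D4:**
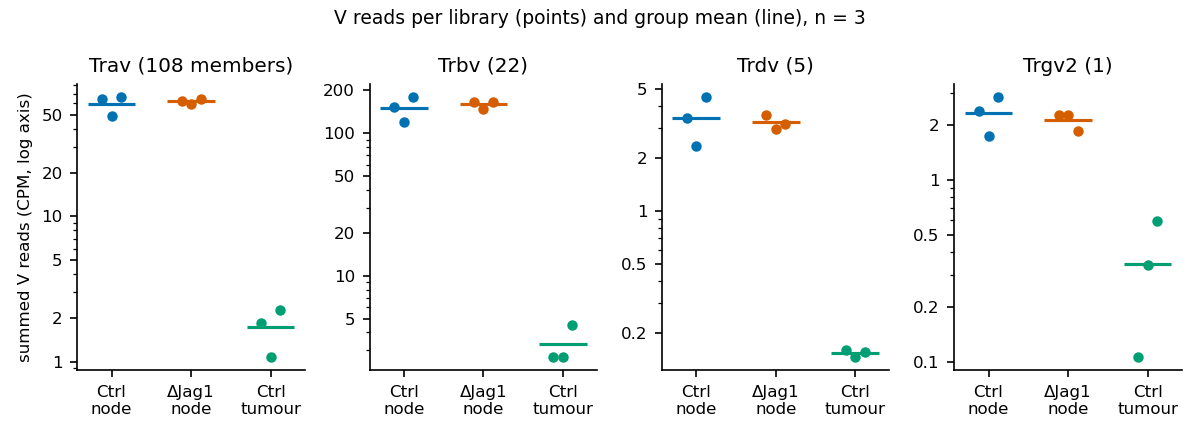
Summed V counts of each chain in CPM (log axes that differ between panels) for the 3 Foxp3Ctrl nodes, 3 Foxp3ΔJag1 nodes and 3 Foxp3Ctrl tumours, with group means as lines. Node groups overlap in every panel, and the tumours lie below them by a smaller step for Trgv2 than for Trav and Trbv.

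The markers of T cells fell with the segments. The 16 genes of the CD3 complex, coreceptors and proximal signalling summed to between 80.8 and 112.9 CPM in tumours and between 2453 and 3028 CPM in the nodes of the same mice. All 16 were called lower by edgeR, with a median log2 fold change of -5.12, and so were all 7 constant-region genes, with a median of -4.75. B cell markers summed to between 7.62 and 12.1 CPM in tumours and between 4385 and 4982 CPM in nodes. Melanoma markers summed to between 17648 and 23066 CPM in tumours and to at most 36.5 CPM in any node. The medians of the members were -5.43 for the 44 Trav tested, -6.00 for the 21 Trbv and -5.10 for the 4 Trdv.

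Among the members with the smallest p were Trbv1, Trbv19, Trbv13-3, Trbv29 and Trbv14. Trbv1 had 328, 286 and 399 counts in the nodes and 2, 2 and 2 in the tumours of the same mice, a log2 fold change of -7.22 ± 0.34 (SE; edgeR adjusted p = 1.14e-06). The other 4 had between 1 and 5 counts in each tumour and log2 fold changes between -7.04 and -6.00. Of the 70 members tested, Trav4-4-dv10, Trgv2 and Trbv30 fell least. Trbv30 had a log2 fold change of -2.69 ± 0.88 (SE, edgeR adjusted p = 0.0241), with 0, 9 and 0 counts in the tumours. Trav4-4-dv10 fell by 2.39 ± 0.34 on the log2 scale (SE; edgeR adjusted p = 0.000349) and Trgv2 by 2.68 ± 0.50 (SE; edgeR adjusted p = 0.0016).

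Per 100 counts of the 4 CD3 genes Cd3d, Cd3e, Cd3g and Cd247, the chains moved apart. Trav counts were 10.9 ± 1.01 in nodes and 10.1 ± 3.28 in tumours, and Trbv counts 27.4 ± 1.34 and 18.9 ± 1.41 (SD, n = 3 each). Trgv2 counts were 0.444, 0.378 and 0.431 in the Foxp3Ctrl nodes and 0.781, 2.20 and 2.59 in their tumours, so the 3 tumours lay above. On this scale the direction turned for Trgv2, with a difference of 1.98 in mean log2 (exact permutation p = 0.1, the lowest possible), and for Trdv, with 0.59 (exact permutation p = 0.2). Tcrg-C2, a constant gene of the γ locus, had 11, 31 and 44 counts in the tumours. The constant genes Tcrg-C1 and Tcrg-C4 had 12, 6 and 5 and 4, 2 and 9 counts there. Per 100 counts of Trbc1 and Trbc2, Trbv counts were 43.4 ± 0.969 in Foxp3Ctrl nodes and 40.7 ± 3.46 in tumours (SD, n = 3 each). Relative to the constant genes of the same chain, tumours and Foxp3Ctrl nodes overlapped in every chain.

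The share of Trav counts that fell to Trav4-4-dv10 was high in all 3 tumours. This segment, which by its name can also join to the δ chain, is described because its tumour shares were seen to be high, and no test was made. It had 85, 84 and 62 counts in the Foxp3Ctrl nodes, or 3.64%, 3.97% and 2.65% of Trav counts, and 3.49%, 3.02% and 3.43% in the Foxp3ΔJag1 nodes. In the tumours it had 10 of 69, 13 of 44 and 17 of 73 Trav counts, which are shares of 14.5% (95% Wilson interval 8.07 to 24.7%), 29.5% (18.2 to 44.2%) and 23.3% (15.08 to 34.2%). The lowest tumour interval lay above the highest node share, and the segment was the largest of the chain in each tumour. No other Trav member lay above all nodes in all 3 tumours. A count of 0 allows a share of up to 4.35%, 6.82% and 4.11% of Trav counts in the 3 tumours, so that segments without a count there could not be placed below the nodes at this depth. Intervals cover counting error only, and reads of the same molecule are not independent.

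The other dv-named segments did not show that. All 10 together took 31.9%, 36.4% and 32.9% of Trav counts in the tumours, against 12.8 ± 0.198% in Foxp3Ctrl nodes. Without Trav4-4-dv10 the other 9 took 17.4%, 6.82% and 9.59% in the tumours against 9.33 ± 0.505% in Foxp3Ctrl nodes. Of the 21 Trav families, only Trav4 lay above all nodes in all tumours, with 16, 16 and 17 counts, and Trav4-3, its next member there, had 6, 3 and 0 of them. Trav4-4-dv10 is 97.2% identical to its nearest row, Trav4d-4, and so was not counted among the near-identical copies. Its last 60 bases are, however, the same as those of Trav4-3, Trav4d-4 and Trav4n-4. Reads that lie within these bases cannot be told apart among these segments. How many of its tumour reads lie there was not tested.

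**Figure D5:**
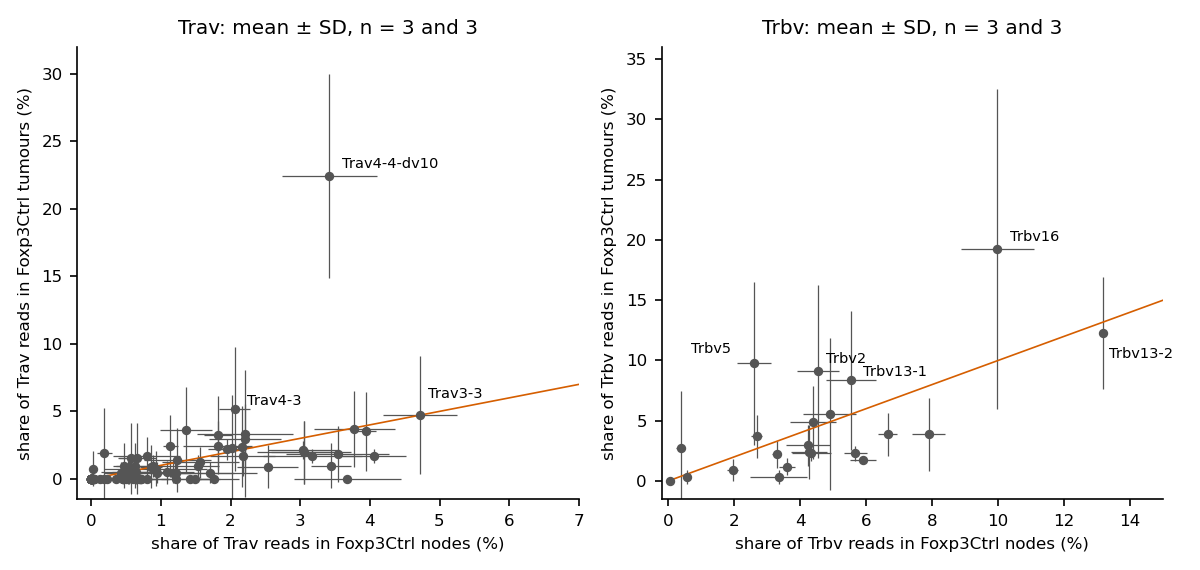
Mean share ± SD of each Trav (left) and Trbv (right) segment in the 3 Foxp3Ctrl tumours against that in the 3 Foxp3Ctrl nodes, with a line at equal shares. Trav4-4-dv10 lies at 22.4% in tumours and 3.42% in nodes, while Trbv16 has a wide SD because tumour 1 differs from the other two.

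In the β chain the tumours differed among themselves. Trbv16 took 4 of 101 Trbv counts in tumour 1, 31 of 110 in tumour 2 and 37 of 145 in tumour 3, or 3.96% (95% Wilson interval 1.55 to 9.74%), 28.2% (20.6 to 37.2%) and 25.5% (19.1 to 33.2%). Its node shares lay between 9.00% and 11.2%, so that tumours 2 and 3 were above every node and tumour 1 below. In tumour 1 the largest share belonged to Trbv12-1 and Trbv13-1, with 13 counts each (12.9%). Trbv5 had 8, 19 and 6 counts, which are 7.92%, 17.3% and 4.14%, and was the only Trbv member above all 6 nodes in all 3 tumours, the nodes lying between 1.90% and 3.14%. The 95% Wilson intervals were 4.07 to 14.9%, 11.3 to 25.4% and 1.91 to 8.73%, and the last includes node shares. The gene 5830405F06Rik, whose exon Trbv5 shares, had 1, 0 and 0 counts in the tumours. Trbv13-2, the leading node segment, took 6.93%, 15.5% and 14.5%. Trbv1, Trbv12-2, Trbv13-3, Trbv19, Trbv29 and Trbv31 had shares below all nodes in all tumours, on between 0 and 7 counts per tumour. In tumour 1 the 95% Wilson intervals of Trbv1 and Trbv29 reached 6.93%, of Trbv13-3 and Trbv19 8.37% and of Trbv12-2 11.1%. These intervals included node shares, so a lower share was not resolved in that tumour. In tumours 2 and 3 the intervals of the same segments also included node shares, except for Trbv12-2 in tumour 2. There the 95% Wilson interval of Trbv12-2 ended at 6.39%, just under its lowest node share of 6.45%. Trbv21 had no count in a tumour, which allows up to 2.97%, 2.73% and 2.07% of Trbv counts, far above its node shares, so that no difference was detectable.

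Fewer effective segments were found in tumours, at far fewer counts. The effective number of segments was 18.2 ± 3.597 for Trav in tumours against 49.8 ± 3.29 in their nodes, 11.9 ± 2.96 against 17.5 ± 0.177 for Trbv and 1.81 ± 0.208 against 4.06 ± 0.119 for Trdv (SD, n = 3 each; exact permutation p = 0.1 each, the lowest possible). Depth enters these numbers, so nothing is read from these p-values. For Trav, tumour 2 could not exceed its 44 counts, while the lowest node value was 46.0. The Trdv values of tumours rest on 5 or 6 counts each. At a common depth of 44 Trav counts, 20.9, 21 and 24.0 segments would be met in the tumours and between 27.3 and 28.9 in the nodes. At 101 Trbv counts the tumours gave 20, 18.6 and 16.3 segments and the nodes between 19.2 and 19.5, so tumour 1 lay above the nodes and tumours 2 and 3 below.

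Trdv4 held 5, 4 and 2 of the 6, 6 and 5 Trdv counts in tumours, shares of 83.3%, 66.7% and 40.0% that lay above all 6 nodes, whose highest was 32.7%. With so few counts the 95% Wilson intervals ran from 43.6 to 97.0%, from 30 to 90.3% and from 11.8 to 76.9%, and the last 2 include node values. Trdv1 had no count in any tumour, which with 6, 6 and 5 Trdv counts allows a share of up to 50% in tumours 1 and 2 and 60% in tumour 3. Of the γ rows outside the choice, Tcrg-V5, which pairs with this δ segment in epidermal γδ T cells, had 0 counts in the 3 tumours, and Tcrg-V6, its partner in other tissue γδ T cells, had 5, 1 and 1.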

How the data were processed

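Trimmomatic 0.36, STAR 2.5.2b, Subread 1.5.2 with its featureCounts, and the build GRCm38 are named in the submitters' processing notes. The authors deposited whole-number counts per gene, not normalized, in a table of nodes and a table of tumours. The annotation, the strand setting and the treatment of reads that match several genes are not stated in these sources, nor is it settled whether RNA was poly(A)-selected or depleted of ribosomal RNA. Of 49315 identifiers, 48970 matched GENCODE M21, the source of symbols, positions and transcript sequences. The labels describe 13 samples, and 3 columns of the tumour table match none of them and were not used.

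The members and lists were chosen with earlier results of these data known. CPM used library totals. Shares, effective numbers and distances were computed per chain. The test across genes was edgeR's (4.0.16, R 4.3.3) quasi-likelihood F-test, with TMM, filterByExpr, robust dispersions and Benjamini-Hochberg adjustment at 0.05, on the 2 groups compared. The fit was tested on simulated data. Summed values were compared by exact permutation over libraries, without pairing by mouse. A count of 0 was given an upper limit of 3 counts. The library names carry a different mouse code within each group, and p-values measure the spread between these samples.

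Segments were named by rule: the 5 with the largest node share for Trav and Trbv and 3 for Trgv and Trdv, the 3 smallest p per direction in nodes and the 5 smallest in tumours against nodes, the 3 largest differences of share per direction, Trav11 and Trav1. Trav4-4-dv10, Trbv5, Trbv12-1, Trbv13-1, Trbv30 and Trdv1 in tumours or nodes, the non-overlapping segments and the sequence sets were picked with their values in view. Tumour and node of a control mouse share a mouse code in the library names and were paired by it in an alternative (correlations of -0.08, 0.13 and -0.00). Alternatives were DESeq2 1.42.0 and its size factors, library size only, other filters, a replicate block, a joint fit, other denominators, pseudogenes added, near-identical copies left out and each library left out. Shares per kilobase of exon and the segment families were added after seeing the data.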

Additional observations from a re-analysis of the deposited data

How the results depend on the processing

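In nodes, 0 members were called under every alternative run, including each library left out. In tumours against nodes, 34 members were called when 3 libraries had to reach 1 CPM, since fewer entered, and between 72 and 83 with each library left out; no member was called higher. A replicate block changed no call in either comparison (0 in nodes, 70 in tumours); same-numbered nodes of the 2 genotypes did not deviate together (correlations of -0.16, 0.03 and -0.12), so the numbers were not read as pairs. The cause was not tested for the turns of direction that follow, unless fewer samples or segments made them. Node chain totals relative to CD3 counts gave -0.0865 for Trav and -0.0536 for Trbv. With each library left out they ran from -0.0617 to 0.15 for Trav, from -0.0478 to 0.24 for Trbv, from -0.29 to 0.0572 for Trgv2 and from -0.28 to 0.18 for Trdv, where leaving out the second Foxp3ΔJag1 node gave 0.02. In tumours against nodes, chain totals relative to CD3 counts gave 1.98 for Trgv2 and 0.59 for Trdv. Distances between minus within groups ran from -1.55 to 1.16 points for Trav, from -0.20 to 1.19 for Trbv and from -0.89 to 2.19 for Trdv with each node left out, and were 0.0923 for Trav without near-identical copies. For Trav the value was 0.03 without the first, 0.96 without the second and 1.16 without the third Foxp3Ctrl node. For Trdv it was -0.89 without the second Foxp3Ctrl and -0.69 without the third Foxp3ΔJag1 node. Effective numbers of Trav segments in nodes differed by -1.20 to 1.71. Segments whose shares did not overlap numbered 2 for Trav without near-identical copies, and 7 to 16 for Trav, 4 to 10 for Trbv and 1 to 3 for Trdv with each node left out, as 2 nodes separate more easily than 3. Distances of mean shares between tumours and nodes ran from 36.8 to 47.2 points for Trav, from 26.5 to 36.1 for Trbv and from 36.2 to 47.6 for Trdv. The few V counts of tumours (44 to 145 for Trav and Trbv, 5 or 6 for Trdv) limit what their shares can show.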

Other observations

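The joining segments of the same loci did not move in step with the V segments. In the Foxp3Ctrl nodes, Traj rows held 21.2, 19.9 and 39.5 counts per 100 Trav counts, and Trbj rows 25.4, 24.7 and 39.02 per 100 Trbv counts, so that the first 2 nodes were low in both chains. The Foxp3ΔJag1 nodes held between 32.7 and 34.3 for the α chain and between 33.8 and 44.7 for the β chain, inside or above the range of the control nodes.

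The γ genes under the Tcrg-V names were low in nodes, with Tcrg-V4 at 1.60 ± 0.491 CPM and Tcrg-V1 at 1.01 ± 0.315 CPM (SD, n = 3) in control nodes. In Foxp3ΔJag1 nodes they were at 1.35 ± 0.0354 and 0.875 ± 0.152 CPM. The 34 V pseudogenes together held between 42 and 89 counts per node and 0, 1 and 0 counts in the tumours.

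Of the genes tied to immature or innate-like T cells, Zbtb16, the factor of invariant NKT and MAIT cells, had an unadjusted edgeR p of 0.0115 between the node groups (adjusted p = 0.953; log2 fold change -0.79 ± 0.25, SE). Dntt, which adds bases at V junctions, averaged 7.10 ± 2.58 CPM (SD, n = 3) in control nodes against 4.64 ± 0.793 CPM (SD, n = 3) in Foxp3ΔJag1 nodes (edgeR adjusted p = 0.953; log2 fold change -0.64 ± 0.27, SE). In CPM the node groups overlapped for both Zbtb16 and Dntt. Rag1 held between 3 and 29 counts per node and Rag2 between 0 and 7.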
